A study of Mus musculus with 67 samples.

Results

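RNA of 69 axon guidance genes was examined in 14 RNA-seq libraries of mouse forelimb buds. The genes were all those whose symbol in the gene tables belongs to the ephrin, Eph, semaphorin, plexin, neuropilin, Slit, Robo, netrin, Unc5, Dcc or Neo1 families, and they made up 69 of the 46983 gene IDs listed. The study asked whether the repressor form of GLI3, a transcription factor of the Hedgehog (HH) pathway, already acts in the limb bud before HH signaling begins. Whole forelimb buds were collected at E9.25 (21–23 somites), before HH signaling, from WT (n = 3) and Gli3-/- (n = 4) embryos. The anterior part of forelimb buds, cut away from the posterior part with the source of Shh, was collected at E10.5 (32–35 somites) from WT (n = 4) and Gli3-/- (n = 3) embryos. Loss of Gli3 came from the Xt-J allele, which removes GLI3 activator and repressor alike in every tissue, and all groups were on the Swiss Webster background. Each library pooled buds of several embryos, about 4 pairs for E9.25 and 2 pairs for E10.5 by the sample records, so that each replicate is a pool and not 1 animal. The E10.5 libraries differ from the E9.25 libraries in the part of the bud as well as in the stage, and the contributions of stage and region cannot be told apart.

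Guidance genes were named for steering axons, but they also act between other neighbouring cells. Ephrins on one cell bind Eph receptors on the next and signal in both directions, which sorts cells and sharpens boundaries, and ephrin-A ligands are tethered by a lipid anchor while ephrin-B ligands span the membrane. Class 3 semaphorins are secreted and bind neuropilins, which signal through plexins, whereas the other semaphorins are mostly membrane-bound and bind plexins directly. Slits are secreted ligands of Robo receptors, and netrins bind Dcc and Neo1, which attract, and Unc5 receptors, which repel. In the limb bud these molecules set where and when motor axons, muscle precursors and vessels enter.

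Sequencing depth was estimated as 38.1 to 56.8 M reads a library, and a TPM of 1 corresponded to 20.7 to 29.3 reads per kilobase of transcript. TPM is scaled to gene length, so levels may be compared between genes. Gli3 RNA had a TPM of 44.2, 15.8 and 44.6 in E9.25 WT replicates 1 to 3 and of 14.3, 20.6, 20.8 and 19.1 in the E9.25 Gli3-/- replicates. The library labelled E9.25 WT replicate 2 thus had a Gli3 level inside the range of the Gli3-/- libraries, against its label. Markers of lateral plate, flank and coelomic lining summed to a TPM of 20.8 to 47.8 over the E9.25 WT libraries, this one included. The sum was 68.2 to 159 over the E9.25 Gli3-/- libraries. The source of the low Gli3 level in this library was not tested. At E10.5 the TPM of Gli3 was 84.3, 73.4, 89.7 and 79.1 in WT and 40.9, 40.3 and 38.7 in Gli3-/- limbs, with no overlap. The gene-level value also counts exons outside the deleted part of the Xt-J allele. Against the other libraries of its group, E9.25 WT replicate 2 showed a median log2 difference of −0.17 over 13985 genes, −0.58 over genes that span at least 100 kb and −0.55 over 50 guidance genes, 43 of which were lower in it. The guidance genes are long, with a median span of 56.6 kb against 13.5 kb for all genes that reached a TPM of 1 in any library, and 32 of the 69 span at least 100 kb. The main results that rest on the E9.25 WT group are therefore given with and without this library, while some counts are given only with it. The part of gene length in them was examined only through fits with a trend over gene span removed, given below.

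**Figure D1:**
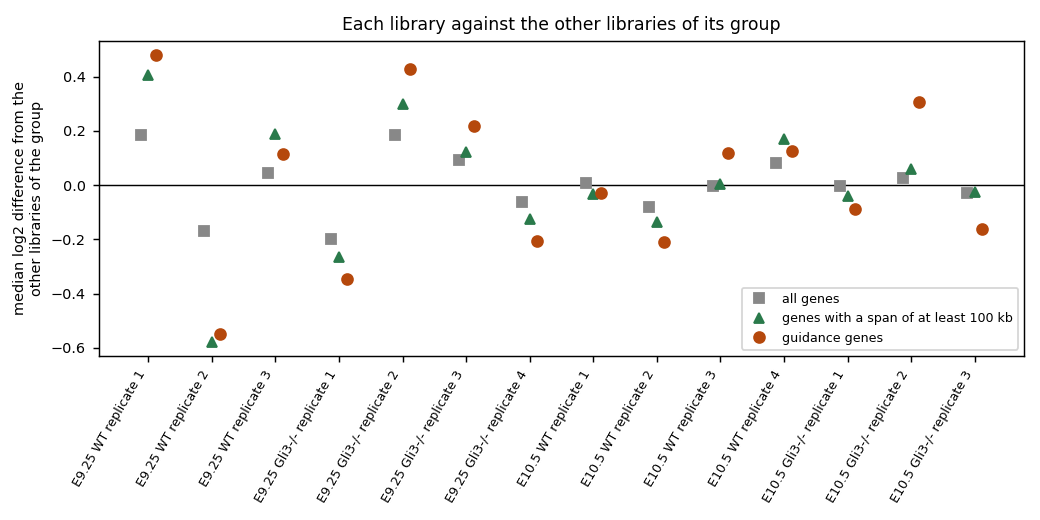
Median log2 difference (TPM + 1) of each library from the other libraries of its group, for all genes, for genes that span at least 100 kb and for the guidance genes. The library labelled E9.25 WT replicate 2 lies lowest for the guidance genes, at −0.55, and E9.25 WT replicate 1 highest, at 0.48.

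Of the 69 genes, 46 had a TPM of at least 1 in all 14 libraries, 10 stayed under 1 in every library, and Plxnb3 was listed at 0 throughout. The most abundant guidance genes over all libraries were the plexin Plxnb2, a receptor of class 4 semaphorins, with a mean TPM of 65.9, and the receptor Ephb4, known from veins, with 65.7. The next were the secreted repellent Sema3a with 49.6, the ligand Efnb2, known from arteries, with 45.9, and the lipid-anchored ligand Efna2 with 45.1. The order changed with the stage. Sema3a led at E9.25, with a TPM in WT buds of 84.3 ± 12.4 (SD, n = 3) and in Gli3-/- buds of 64.2 ± 11.2 (SD, n = 4). In the latter its level did not stand apart from that of Plxnb2, 60.6 ± 13.4 (SD, n = 4). At E10.5 WT limbs were led by Ephb4 with 82.3 ± 10.7 (SD, n = 4) and Plxnb2 with 82.0 ± 10.52 (SD, n = 4), which differed by less than the spread between replicates. In E10.5 Gli3-/- limbs Nrp2, with 78.9 ± 12.4 (SD, n = 3), lay between Ephb4, with 83.6 ± 11.4 (SD, n = 3), and Plxnb2, with 75.7 ± 8.88 (SD, n = 3), again within the spread.

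The 11 genes that entered no test because of their low level were Dcc, Epha6, Epha8, Epha10, Ntn5, Plxnb3, Robo3, Sema3e, Sema5b, Unc5a and Unc5d. Dcc, the main attractive netrin receptor of axons, had a mean TPM of at most 0.137 in any group. Robo3, which acts in commissural neurons, had a mean TPM of at most 0.0151. The netrin receptors of the limb buds were therefore Neo1, Unc5b and Unc5c, with means over 14 libraries of 30.5, 27.5 and 14.8. Markers of neurons and neural tube, a list of 9 genes, summed to a TPM of 3.65 to 17.8 over the 14 libraries. Tubb3 was the highest of them in each library, with a TPM of 2.32 to 14.9, and Olig2 was at 0 in 3 of the 4 groups. From E9.25 to E10.5, 1 of 2 tested rose in WT and 2 of 3 in Gli3-/- limbs, beside 38.1% and 15.8% of all genes. The limb mesenchyme markers were all present, with 8 of 8 at a TPM of at least 1 in each group.

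**Figure D2:**
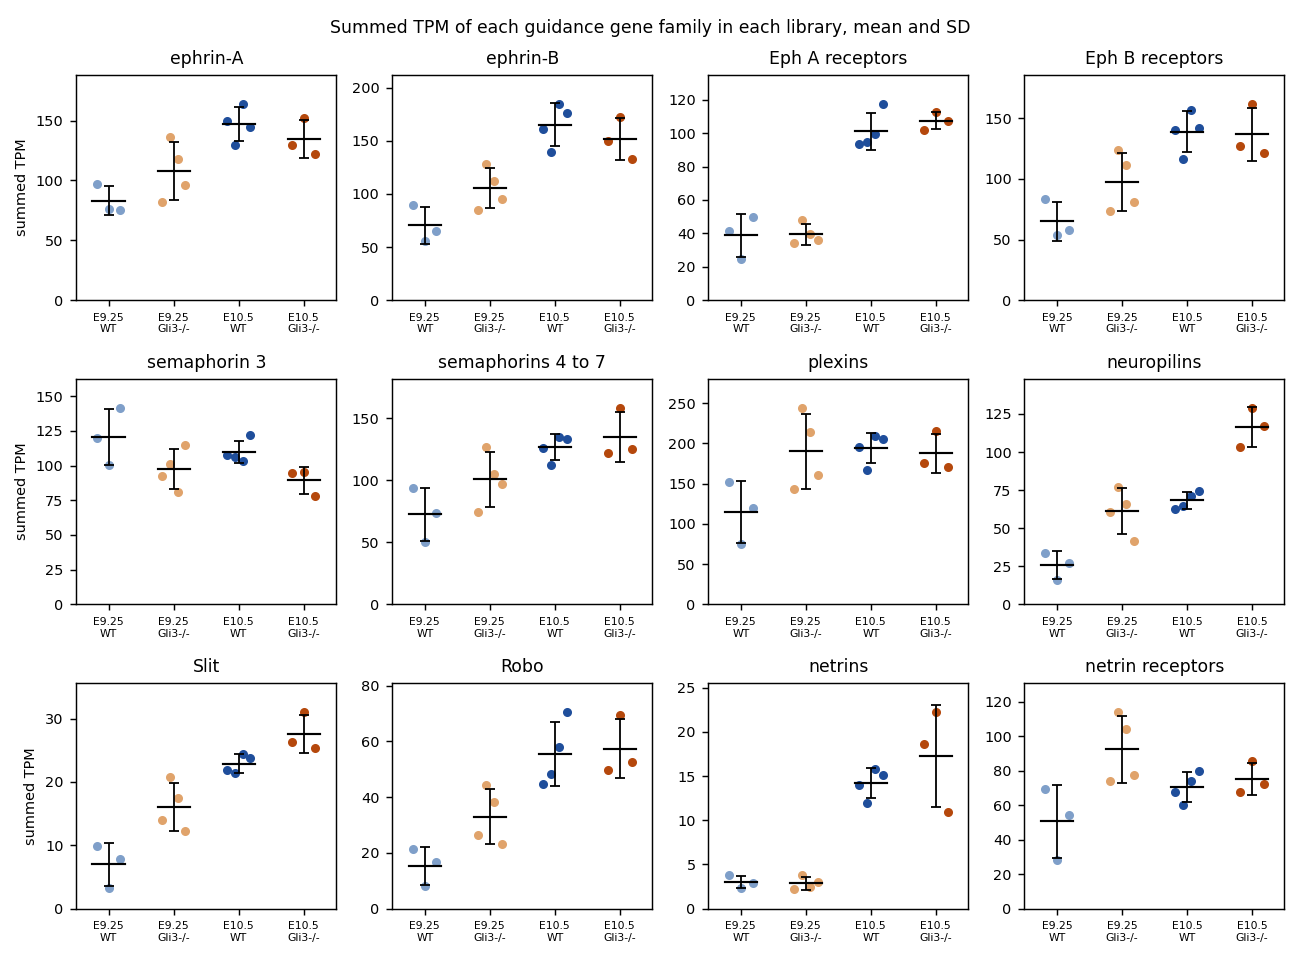
Summed TPM of each guidance gene family in each library (points), with the mean (line) and SD (bars) of the 4 groups. The neuropilin sum was 103 to 129 in E10.5 Gli3-/- limbs and 62.8 to 74.4 in E10.5 WT limbs, and the Eph A sum was 24.6 to 50.05 in all E9.25 libraries and 93.5 to 117 in all E10.5 libraries.

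The first comparison asked which guidance genes depend on Gli3 in the anterior limb once HH signaling is established. The calls use limma on log2(TPM + 1) over all genes that reached a TPM of 1 in 3 or more of the compared libraries, with Benjamini-Hochberg adjustment and a threshold of 0.05. Of 56 guidance genes tested at E10.5, 3 rose and 9 fell with loss of Gli3 (limma adjusted p under 0.05), and 23 had an unadjusted p under that value (41.1%, beside 19.6% of all genes). The shares are 5.36% and 16.1%, beside 1.84% and 2.93% of all 15654 genes tested. The median log2 fold change was −0.03 over the guidance genes and −0.02 over all genes, so the genes moved in both directions. Nrp2, Slit3 and Epha4 rose. Epha3, Epha7, Efna3, Efna5, Efnb2, Sema3a, Sema3d, Plxna2 and Slit2 fell. In all 12 genes the WT and Gli3-/- libraries did not overlap. This is no separate support, as the genes were picked by a test on the same libraries. In these bulk samples, fewer cells of a type and less RNA per cell cannot be told apart.

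Nrp2 (ENSMUSG00000025969.15, chromosome 1, 62703285 to 62818695, plus strand) encodes the neuropilin that binds Sema3f and also serves as a co-receptor for VEGF-C. Its TPM was 30.4, 35.6, 36.7 and 37.4 in E10.5 WT limbs and 66.3, 91.0 and 79.3 in E10.5 Gli3-/- limbs. Every Gli3-/- library was far above every WT library. Mean TPM was 2.25-fold higher in Gli3-/- limbs, and the log2 fold change of TPM + 1 was 1.14 (limma adjusted p = 0.000806, standard error 0.11), the largest rise among the guidance genes. The other neuropilin, Nrp1, the receptor of Sema3a, had a mean TPM in WT limbs of 33.1 ± 3.40 (SD, n = 4) and in Gli3-/- limbs of 37.5 ± 0.580 (SD, n = 3), and its log2 fold change of 0.18 did not pass (limma adjusted p = 0.303).

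The Slit ligands moved in opposite directions. Slit3 (ENSMUSG00000056427.10, chromosome 11, 35121224 to 35708507, plus strand) had a TPM of 11.7, 10.7, 13.4 and 12.2 in WT and 18.3, 23.8 and 18.9 in Gli3-/- limbs, for a log2 fold change of 0.71 (limma adjusted p = 0.00958, standard error 0.12). Slit2 (ENSMUSG00000031558.15, chromosome 5, 47983138 to 48307733, plus strand) had a TPM of 9.28, 9.58, 9.73 and 10.4 in WT and 6.98, 6.27 and 5.94 in Gli3-/- limbs, for a log2 fold change of −0.54 (limma adjusted p = 0.0157, standard error 0.10). Slit3 was thus the more abundant of the pair in each library, and the gap between them was wider in every Gli3-/- library. The summed Slit level was 21.4 to 24.4 in WT and 25.4 to 30.996 in Gli3-/- limbs. None of the 3 Robo receptors tested passed with limma, 0 of them with an unadjusted p under 0.05, and the 95% confidence interval of the log2 fold change of Robo2 was −0.52 to 0.51.

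Among the Eph A receptors, Epha3 and Epha7 fell and Epha4 rose. Epha3 (ENSMUSG00000052504.6, chromosome 16, 63543538 to 63864158, minus strand), a high-affinity receptor of ephrin-A5, had a TPM of 8.94, 7.92, 6.84 and 9.90 in WT and 3.66, 2.78 and 2.55 in Gli3-/- limbs. Its log2 fold change of −1.23 (limma adjusted p = 0.00215, standard error 0.15) was the largest fall among the guidance genes. Epha7 (ENSMUSG00000028289.12, chromosome 4, 28813131 to 28967499, plus strand), another receptor of ephrin-A ligands, had a TPM of 21.8, 23.3, 20.8 and 26.8 in WT and 11.4, 11.3 and 7.68 in Gli3-/- limbs, with a log2 fold change of −1.13 (limma adjusted p = 0.0027, standard error 0.14). Mean TPM was 2.29-fold lower in Gli3-/- limbs, and all 3 of these libraries lay far below the WT libraries. Epha4 (ENSMUSG00000026235.14, chromosome 1, 77367185 to 77515088, minus strand), which binds ephrins of both classes and steers motor axons at the base of the limb, had a TPM of 40.7, 44.5, 47.9 and 56.7 in WT and 63.9, 71.1 and 74.1 in Gli3-/- limbs. Its log2 fold change was 0.55 (limma adjusted p = 0.0227, standard error 0.11). Epha4 was the most abundant Eph A receptor, and the summed level of the family, 93.5 to 117 in WT and 102 to 112 in Gli3-/- limbs, overlapped between genotypes. None of the 4 Eph B receptors tested passed with limma, and 1 had an unadjusted p under 0.05.

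Ephrin ligands fell where they passed. Efna3 (ENSMUSG00000028039.11, chromosome 3, 89313899 to 89322965, minus strand) had a TPM of 7.62, 6.66, 8.01 and 8.91 in WT and 3.67, 4.13 and 2.65 in Gli3-/- limbs, for a log2 fold change of −0.98 (limma adjusted p = 0.00626, standard error 0.15). Efna5 (ENSMUSG00000048915.12, chromosome 17, 62604184 to 62881317, minus strand), a repellent ligand of Epha3, Epha4 and Epha7, had a TPM of 24.9, 20.0, 25.8 and 26.8 in WT and 16.7, 14.3 and 11.7 in Gli3-/- limbs, for a log2 fold change of −0.74 (limma adjusted p = 0.0157, standard error 0.14). In both ephrin-A genes the WT and Gli3-/- libraries did not overlap, as in the other genes called at E10.5. Efnb2 (ENSMUSG00000001300.15, chromosome 8, 8617434 to 8660773, minus strand), which marks arteries and is also present in limb mesenchyme, had a TPM of 61.4, 53.1, 67.3 and 68.6 in WT and 46.3, 40.9 and 28.2 in Gli3-/- limbs, for a log2 fold change of −0.71 (limma adjusted p = 0.0367, standard error 0.16). The 10 endothelial markers summed to a TPM of 146 to 171 in WT and 139 to 172 in Gli3-/- limbs, and none of the 10 passed with limma, 0 of them with an unadjusted p under 0.05. The part of vessels in the change of Efnb2 was not tested. The related ligands Efna1, Efna2 and Efna4 had log2 fold changes of −0.04, 0.09 and −0.03 and did not pass.

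Among the semaphorins and their receptors, Sema3a, Sema3d and Plxna2 fell. Sema3a (ENSMUSG00000028883.17, chromosome 5, 13125414 to 13602565, plus strand), which delays the entry of motor axons into the limb, had a TPM of 30.7, 36.05, 25.9 and 37.6 in WT and 22.7, 17.0 and 14.9 in Gli3-/- limbs, for a log2 fold change of −0.81 (limma adjusted p = 0.0217, standard error 0.16). Sema3d (ENSMUSG00000040254.11, chromosome 5, 12383385 to 12588948, plus strand), a related secreted ligand at a low level, had a TPM of 3.51, 4.07, 3.40 and 5.67 in WT and 2.44, 1.75 and 1.61 in Gli3-/- limbs, for a log2 fold change of −0.80 (limma adjusted p = 0.0353, standard error 0.18). The 2 genes lie on the same chromosome but do not overlap. Plxna2 (ENSMUSG00000026640.12, chromosome 1, 194618218 to 194816869, plus strand), a plexin that signals for neuropilin-bound semaphorins and binds class 6 semaphorins, had a TPM of 7.16, 4.98, 6.62 and 6.36 in WT and 3.43, 3.85 and 3.72 in Gli3-/- limbs, for a log2 fold change of −0.63 (limma adjusted p = 0.0268, standard error 0.13). Sema3f, the ligand of Nrp2, had a TPM of 65.2, 56.4, 64.9 and 68.2 in WT and 61.8, 69.4 and 55.1 in Gli3-/- limbs, which overlap, and its log2 fold change was −0.04 with a 95% confidence interval of −0.25 to 0.18. None of the 12 semaphorins of classes 4 to 7 tested passed with limma, and 3 had an unadjusted p under 0.05. Sema4c, the most abundant of them and a ligand of Plxnb2, had a log2 fold change of 0.26 (limma adjusted p = 0.196).

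**Figure D3:**
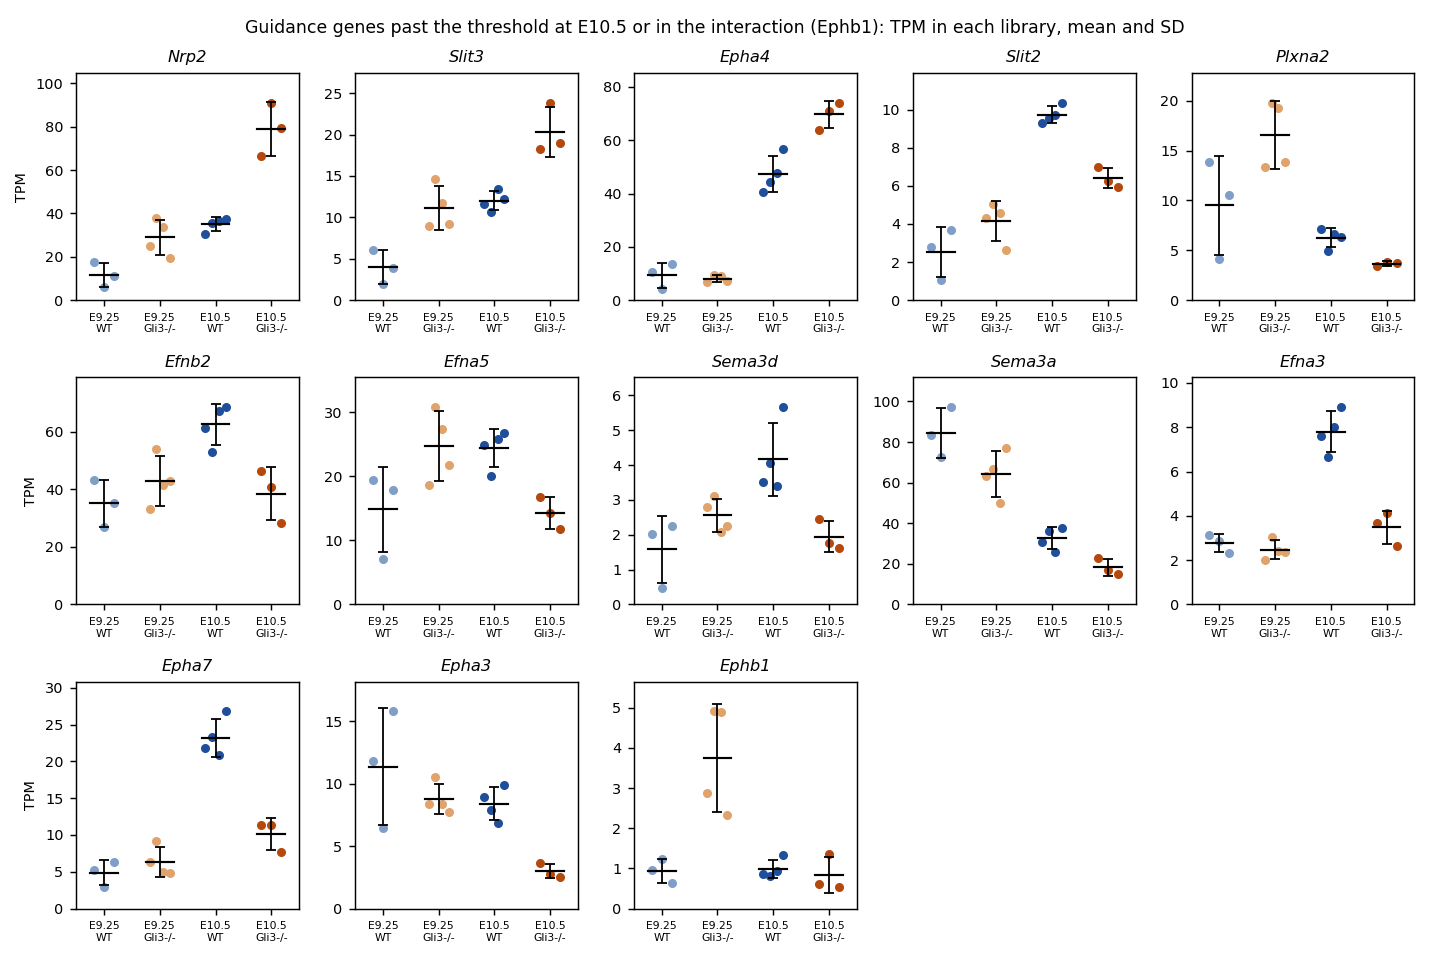
TPM of the 12 guidance genes that changed at E10.5 and of Ephb1, which passed only the test of the stage difference, in each of the 14 libraries (points), with the mean (line) and SD (bars) of each group. At E10.5 the Gli3-/- libraries lie above all WT libraries for Nrp2, Slit3 and Epha4 and below them for the other 9, whereas at E9.25 only Nrp2, Slit3 and Ephb1 have groups that do not overlap.

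The calls differed in how far they rested on single libraries. Nrp2, Slit3, Epha3, Epha7 and Efna3 passed in each of the 7 fits that left out 1 library, and Slit2 and Efna5 passed in 5 of 7, Epha4 and Sema3a in 3, Sema3d and Efnb2 in 2 and Plxna2 in 1. All 12 kept their direction in these fits. The number of guidance genes called was 6 without Gli3-/- replicate 2, 5 without Gli3-/- replicate 3, 7 without WT replicate 4 and 8 to 11 without each of the others. Among the markers fixed for the limb, 5 of 8 limb mesenchyme genes fell and 1 rose at E10.5, with a summed TPM of 1001 to 1187 in WT and 759 to 808 in Gli3-/- limbs, and the 10 genes of surface ectoderm and ridge summed to 258 to 343 in WT and 366 to 411 in Gli3-/- limbs. Their part in the changes of guidance genes was not tested. Nrp2, Slit3, Slit2, Epha3 and Epha4 overlap another expressed gene on the same strand, and reads of overlapping genes may have been shared.

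The sequence before the start site is shown for the gene with the largest rise, the gene with the largest fall and Epha7, the gene that passed at E10.5 and also in the test between stages below. The windows are from RefSeq (GRCm38.p6) and run from 250 to 51 bases before the start, written 5′ to 3′ on the strand of the gene, with CG dinucleotides in capitals. They lie at chr1:62703067-62703266 on the plus strand for Nrp2, at chr16:63864226-63864425 on the minus strand for Epha3 and at chr4:28812881-28813080 on the plus strand for Epha7.
Nrp2: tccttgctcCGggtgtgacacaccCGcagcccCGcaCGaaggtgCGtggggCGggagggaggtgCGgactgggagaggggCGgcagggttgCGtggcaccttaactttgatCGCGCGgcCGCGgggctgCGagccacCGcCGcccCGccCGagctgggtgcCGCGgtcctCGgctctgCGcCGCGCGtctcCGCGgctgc
Epha3: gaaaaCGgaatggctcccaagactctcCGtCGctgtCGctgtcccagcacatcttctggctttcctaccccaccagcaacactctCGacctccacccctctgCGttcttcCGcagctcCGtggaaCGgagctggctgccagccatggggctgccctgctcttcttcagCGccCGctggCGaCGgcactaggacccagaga
Epha7: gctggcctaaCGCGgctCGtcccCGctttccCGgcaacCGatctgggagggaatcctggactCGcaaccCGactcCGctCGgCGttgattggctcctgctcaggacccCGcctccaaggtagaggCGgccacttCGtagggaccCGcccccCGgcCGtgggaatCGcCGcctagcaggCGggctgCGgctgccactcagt
These 200 bases held 28 CG dinucleotides before Nrp2, 13 before Epha3 and 21 before Epha7. The median was 4 over all 32851 RefSeq windows, 12 over the 75 windows that matched 59 of the 69 guidance genes, and 20 over the 15 windows of the 13 genes that changed at E10.5 or between the stages. Sema3a and Sema3d lay at the low end, with 2 each. The RefSeq windows of Sema3a and Plxna2, a window of Efna3 and part of that of Slit3 lie inside the span given for the gene. These windows are included in the median over the changed genes and in the search below. The full windows of 300 bases, from 250 before to 50 after the start, were searched on both strands for the GLI consensus GACCACCCA, which was found in 0 of the 75 guidance gene windows and in 83 of all windows, 0.253% of them. At that share a count of 0 in 75 windows was likely from the start. Only exact matches were counted and distal regions were not searched, so the count cannot tell whether GLI3 binds near these genes.

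At E9.25, before HH signaling, the same comparison asked whether guidance genes already depend on Gli3. None of 52 guidance genes passed in either direction with limma (0 higher beside 0.108% of all 14760 genes, 0 lower beside 0.0271%), and 24 had an unadjusted p under 0.05 (46.2%, beside 22% of all genes). The median log2 fold change was 0.51 over the guidance genes and 0.23 over all genes, with 40 of the 52 above the median gene. Without the library labelled WT replicate 2 the medians were 0.32 and 0.14, again with 0 guidance genes called (beside 0.0953% of all 14690 genes higher and 0.0272% lower). In that fit 17 guidance genes had an unadjusted p under 0.05, for which the share of all genes was not taken. In 11 of the 52 genes all Gli3-/- libraries were above all WT libraries (21.2%, beside 9.97% of all genes), and in 1, Sema3c, all were below (beside 3.36%). The 11 were Efnb1, Efnb3, Ephb1, Ephb2, Neo1, Nrp1, Nrp2, Robo2, Sema6d, Slit3 and Unc5c. Ephb1, with a TPM of 0.971, 1.23 and 0.637 in WT buds, met the filter only through the Gli3-/- libraries, where it is higher. Its place in this list is thus in part set by the filter.

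The receptor Robo2 (ENSMUSG00000052516.17, chromosome 16, 73892306 to 74411825, minus strand) came closest to the threshold. It had a TPM of 3.72, 1.66 and 2.51 in E9.25 WT buds, against 9.96, 15.5, 14.0 and 5.71 in E9.25 Gli3-/- buds. The groups did not overlap, and the log2 fold change was 1.72 (limma adjusted p = 0.0878, standard error 0.32), or 1.51 (limma adjusted p = 0.197) without the library labelled WT replicate 2. It passed without WT replicate 1 or without Gli3-/- replicate 4, with an adjusted p of 0.0238 at the lowest.

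Nrp2 had a TPM of 17.5, 6.28 and 11.2 in E9.25 WT buds, against 25.2, 37.7, 33.5 and 19.5 in E9.25 Gli3-/- buds. Its log2 fold change was 1.31 (95% confidence interval 0.61 to 2.00, limma adjusted p = 0.151), or 0.96 without the library labelled WT replicate 2. Slit3 had a TPM of 6.11, 1.97 and 3.92 in WT and 9.01, 14.7, 11.8 and 9.18 in Gli3-/- buds, with a log2 fold change of 1.35 (95% confidence interval 0.69 to 2.00, limma adjusted p = 0.143), or 1.01 without that library. These genes, which rose at E10.5, therefore did not pass at E9.25, although their intervals, which are not adjusted for the number of genes, lie above 0 and include the sizes seen at E10.5. Unc5c, a repulsive netrin receptor, had a TPM of 18.3, 4.35 and 12.7 in WT and 26.2, 34.8, 34.8 and 25.7 in Gli3-/- buds (log2 fold change 1.47, limma adjusted p = 0.163, or 0.93 with a limma adjusted p = 0.198 when the library labelled WT replicate 2 was left out). Nrp1 had a mean TPM in WT buds of 14.0 ± 3.93 (SD, n = 3) and in Gli3-/- buds of 32.3 ± 7.54 (SD, n = 4) (log2 fold change 1.16, limma adjusted p = 0.131, or 0.92 with a limma adjusted p = 0.248 when that library was left out).

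The genes that fell at E10.5 had no common direction at E9.25. Epha3 had a TPM of 11.8, 6.46 and 15.8 in E9.25 WT buds, against 8.41, 10.54, 8.40 and 7.72 in E9.25 Gli3-/- buds. Efna3 had 3.11, 2.87 and 2.33 in WT and 2.01, 3.06, 2.42 and 2.35 in Gli3-/- buds, and Sema3a had 83.3, 72.4 and 97.2 in WT and 63.0, 66.7, 49.9 and 77.1 in Gli3-/- buds. These 3 genes had negative log2 fold changes, of −0.27, −0.13 and −0.39, and overlapped between genotypes. With the library labelled WT replicate 2 left out the values were −0.60, −0.10 and −0.50. Efna5 had 19.4, 7.14 and 17.8 in WT and 18.6, 30.8, 27.3 and 21.8 in Gli3-/- buds, and Plxna2 had 13.8, 4.16 and 10.503 in WT and 13.4, 19.8, 19.3 and 13.9 in Gli3-/- buds. In both genes the lowest value was that of the library labelled WT replicate 2, and the log2 fold changes of 0.78 and 0.86 were 0.36 and 0.41 without it. Sema3d had 2.01, 0.480 and 2.26 in WT and 2.78, 3.11, 2.07 and 2.25 in Gli3-/- buds, and Slit2 had 2.79, 1.07 and 3.69 in WT and 4.30, 5.04, 4.57 and 2.65 in Gli3-/- buds. The log2 fold changes of Sema3d, Slit2, Efnb2 and Epha7, 0.53, 0.60, 0.29 and 0.33, all had 95% confidence intervals that include 0, and they were 0.17, 0.26, 0.12 and 0.07 when the library labelled WT replicate 2 was left out. The number of guidance genes called at E9.25 was 6 without WT replicate 1, 2 without Gli3-/- replicate 4 and 0 without each of the others. The share of all genes called was not taken in the fits with 6 and 2 calls. Markers of lateral plate, flank and coelomic lining summed to a TPM of 20.8 to 47.8 in E9.25 WT buds, against 68.2 to 159 in E9.25 Gli3-/- buds, with Gata4, Foxf1 and Tcf21 past the threshold, and endothelial markers summed to 107 to 186 and 200 to 296, with 0 of 10 past it and 6 at an unadjusted p under 0.05. Their part in the values of the guidance genes was not tested.

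**Figure D4:**
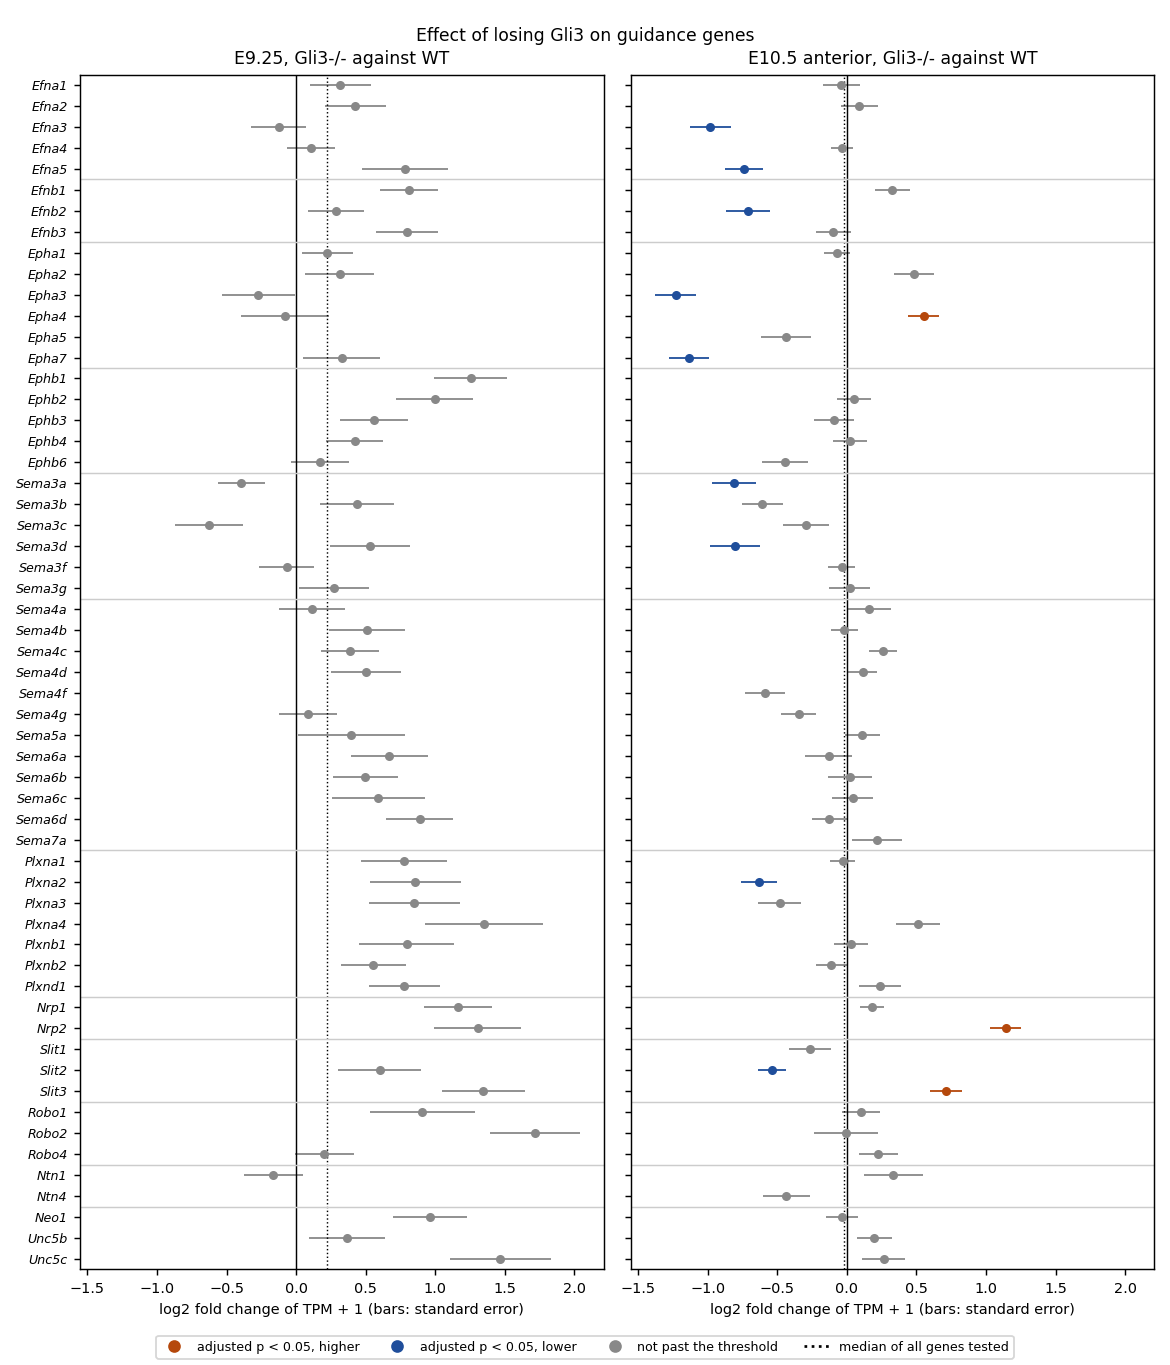
Log2 fold change (TPM + 1) of each tested guidance gene, Gli3-/- against WT, with its standard error, at E9.25 (left) and in anterior E10.5 limbs (right), grouped by family; the dotted line is the median of all genes tested. At E9.25 no gene passed and most points lie right of 0, whereas at E10.5 3 genes rose and 9 fell around a median near 0.

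The interaction of stage and genotype compared the genotype effect at E10.5 with that at E9.25. Of 58 guidance genes, 2 passed, both with a more negative effect at E10.5 (3.45%, beside 1.65% of all 16368 genes), and 0 passed in the other direction (beside 0.477%). The median difference was −0.59 over the guidance genes and −0.24 over all genes, and 25 of the 58 had an unadjusted p under 0.05 (43.1%, beside 21% of all genes). Epha7 had a TPM of 5.27, 2.97 and 6.31 in E9.25 WT buds, against 6.30, 9.17, 4.90 and 4.81 in E9.25 Gli3-/- buds, which overlap, against a clear fall at E10.5. The effect at E10.5 minus that at E9.25 was −1.46 (limma adjusted p = 0.0317, standard error 0.33), and −1.20 (limma adjusted p = 0.0628) when the library labelled E9.25 WT replicate 2 was left out. Ephb1 (ENSMUSG00000032537.14, chromosome 9, 101922128 to 102354693, minus strand), a receptor of ephrin-B ligands, differed through its level at E9.25. Its TPM was 0.971, 1.23 and 0.637 in E9.25 WT buds, 2.89, 4.91, 4.89 and 2.32 in E9.25 Gli3-/-, 0.857, 0.818, 0.936 and 1.33 in E10.5 WT and 0.601, 1.35 and 0.544 in E10.5 Gli3-/- limbs. The E9.25 Gli3-/- libraries stood above all 10 others, and the difference between the stages was −1.39 (limma adjusted p = 0.038, standard error 0.32), or −1.495 (limma adjusted p = 0.0474) without that library.

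Both calls depended on single libraries. Epha7 passed in 5 and Ephb1 in 6 of the 14 fits that left out 1 library, and neither passed with the replicate numbers as a block. The number of guidance genes called was 17 without E9.25 WT replicate 1, 7 without E9.25 Gli3-/- replicate 4, 4 without E9.25 Gli3-/- replicate 1 and 3 when the library labelled E9.25 WT replicate 2 was left out, and it was 0 or 1 without each of the other 10. In the fit with 3 calls, 1 effect was more positive and 2 were more negative at E10.5, beside 0.386% and 0.949% of all 16341 genes. The share of all genes was not taken in the other fits. With the library labelled E9.25 WT replicate 2 left out, Epha4 passed with a more positive effect at E10.5 (difference 1.06, limma adjusted p = 0.0254). For Nrp2 the difference between the stages was −0.17 with a 95% confidence interval of −0.96 to 0.63, and it was 0.18 when that library was left out, which does not show that its rise was alike at both.

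Between the stages, guidance genes were mostly higher in the anterior E10.5 limb. In WT, 40 of 56 rose (71.4%, beside 38.1% of all 15444 genes) and 2 fell (3.57%, beside 10.6%). Among the 40, Epha5, Sema4f, Slit1, Ntn4 and Sema7a stayed under a TPM of 1 in every E9.25 WT library. They entered the test only through the E10.5 libraries, where they are higher, so their rise is in part set by the filter. At a TPM minimum of 5 the split was 33 higher and 2 lower. The median log2 fold change was 0.93 over the guidance genes and 0.34 over all genes, with 46 of the 56 above the median gene. In Gli3-/- limbs 17 of 55 rose (30.9%, beside 15.8% of all 15434 genes) and 9 fell (16.4%, beside 9.17%), with medians of 0.34 and 0.06. In WT the split was 28 higher and 6 lower after quantile normalization and 29 and 7 after removal of the trend of each library over gene span. The share of all genes was not taken under these settings. When the library labelled E9.25 WT replicate 2 was left out, the split was 37 and 6 of 56, beside 33.6% and 9.65% of all 15330 genes. The medians were then 0.79 over the guidance genes and 0.25 over all genes. Epha3, Plxna2, Plxna4 and Unc5c were added to the lower genes in that fit. The WT and Gli3-/- comparisons share no libraries.

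Several ligands and receptors rose in both genotypes. Ntn1, the secreted netrin, had a TPM of 2.83, 1.51 and 2.14 in E9.25 WT and 11.4, 9.92, 13.4 and 11.7 in E10.5 WT limbs, and 1.63, 2.10, 1.63 and 1.78 in E9.25 and 16.9, 20.0 and 9.53 in E10.5 Gli3-/- limbs. No E10.5 value was near an E9.25 value, and the log2 fold changes were 2.01 (limma adjusted p = 0.000155) in WT and 2.51 (limma adjusted p = 2.91e-05) in Gli3-/- limbs. Sema3f had 20.6, 15.8 and 20.8 in E9.25 WT buds, against 14.5, 18.9, 16.1 and 24.0 in E9.25 Gli3-/- buds, and its range over all E10.5 libraries was 55.1 to 69.4. Its log2 fold changes were 1.69 (limma adjusted p = 6.02e-05) and 1.72 (limma adjusted p = 5.74e-05). Sema6c, a transmembrane semaphorin, had 5.35, 2.15 and 1.39 in E9.25 WT buds, against 3.74, 5.99, 5.43 and 3.20 in E9.25 Gli3-/- buds, and 22.5, 19.8, 23.0 and 23.5 in E10.5 WT and 19.0, 30.1 and 20.7 in E10.5 Gli3-/- limbs. Its log2 fold changes were 2.67 (limma adjusted p = 0.00036) and 2.12 (limma adjusted p = 8.43e-05).

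Ephrin and Eph genes rose in larger number in WT than in Gli3-/- limbs, as did all genes, of which 38.1% and 15.8% rose. Whether the families differed from all genes in this was not tested. Epha4 had a TPM of 10.4, 4.25 and 13.5 in E9.25 WT buds, against 6.85, 9.35, 9.10 and 7.12 in E9.25 Gli3-/- buds, and it rose by a log2 fold change of 2.33 (limma adjusted p = 0.000765) in WT and 2.97 (limma adjusted p = 5.03e-07) in Gli3-/- limbs, the largest rise of the latter. Epha7 rose in WT by 2.09 (limma adjusted p = 0.000247), and its log2 fold change of 0.63 in Gli3-/- limbs did not pass (limma adjusted p = 0.0631). Epha5, a receptor of ephrin-A ligands that was listed at 0 in 6 of the 7 E9.25 libraries, had a TPM of 1.75, 1.498, 1.67 and 2.31 in E10.5 WT and 1.11, 1.53 and 0.643 in E10.5 Gli3-/- limbs. Efnb1, a ligand of Eph B receptors that takes part in patterning the limb skeleton, had 22.0, 12.7 and 15.8 in E9.25 WT and 49.2, 44.7, 60.3 and 54.7 in E10.5 WT limbs, and 24.6, 34.6, 33.9 and 26.5 in E9.25 and 56.8, 77.1 and 63.9 in E10.5 Gli3-/- limbs. Every E10.5 library exceeded every E9.25 library in this gene, with log2 fold changes of 1.60 and 1.12 (limma adjusted p = 0.000415 and 0.000592). In WT, 5 of 6 Eph A receptors, 4 of 4 Eph B receptors, 4 of 5 ephrin-A and 3 of 3 ephrin-B ligands rose, and in Gli3-/- limbs 2 of 5, 2 of 5, 1 of 5 and 2 of 3, with 1 gene of each of the first 3 families lower. Ephb4 had 50.98, 34.6 and 35.7 in E9.25 WT and 84.8, 67.8, 93.6 and 82.9 in E10.5 WT limbs, and 41.8, 68.6, 61.5 and 46.9 in E9.25 and 77.3, 96.7 and 76.6 in E10.5 Gli3-/- limbs, and rose in both, by 1.02 and 0.62 on the log2 scale (limma adjusted p = 0.00168 and 0.0254). Efnb2, with 43.2, 26.9 and 35.3 in E9.25 WT buds, against 33.2, 54.1, 41.6 and 43.0 in E9.25 Gli3-/- buds, rose in WT by 0.83 (limma adjusted p = 0.00433), and its log2 fold change of −0.16 in Gli3-/- limbs did not pass. Efna2 had 35.0, 28.4 and 22.9 in E9.25 WT and 55.9, 45.3, 63.8 and 49.98 in E10.5 WT limbs, and 29.6, 53.6, 40.7 and 33.9 in E9.25 and 51.1, 67.6 and 53.0 in E10.5 Gli3-/- limbs. It rose in WT by 0.89 (limma adjusted p = 0.00349), while the Gli3-/- libraries overlapped between stages.

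Robo2 rose most in WT, from the low E9.25 levels given above to a TPM of 19.1, 24.3, 28.4 and 41.8, a log2 fold change of 3.00 (limma adjusted p = 0.000161). In Gli3-/- limbs it reached 24.8, 34.1 and 23.8, a log2 fold change of 1.28 (limma adjusted p = 0.0079). Robo1, the Robo receptor with the highest mean over all libraries, had 15.7, 4.15 and 12.6 in E9.25 WT and 21.0, 19.3, 24.7 and 25.0 in E10.5 WT limbs (log2 fold change 1.148, limma adjusted p = 0.0273), and 14.8, 25.9, 22.0 and 14.7 in E9.25 and 19.8, 29.0 and 24.1 in E10.5 Gli3-/- limbs, which overlap. In WT all 3 Slit genes and all 3 Robo receptors tested rose, although the log2 fold change of Slit1, a ligand with a mean TPM of 0.8294, was −0.03 after quantile normalization. Slit1 also entered the test only through its E10.5 libraries. Slit2 rose by 1.69 and Slit3 by 1.46 on the log2 scale in WT (limma adjusted p = 0.00152 and 0.00327). In Gli3-/- limbs Slit3 rose by 0.83 (limma adjusted p = 0.00777), and Slit2, with 0.55, did not pass. Nrp2 rose in WT by 1.61 (limma adjusted p = 0.00229) and in Gli3-/- limbs by 1.44 (limma adjusted p = 0.000734).

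Fewer guidance genes fell between the stages. Sema3a fell in both genotypes, by 1.35 on the log2 scale in WT (limma adjusted p = 0.000415) and by 1.77 in Gli3-/- limbs (limma adjusted p = 5.91e-05), from the E9.25 levels given above. Sema3c, a class 3 semaphorin with a role in heart outflow septation, fell by 1.23 and 0.90 (limma adjusted p = 0.00544 and 0.00277). Its mean TPM was 12.2 ± 5.22 (SD, n = 3) in E9.25 WT, 7.17 ± 0.844 (SD, n = 4) in E9.25 Gli3-/-, 4.43 ± 0.865 (SD, n = 4) in E10.5 WT and 3.41 ± 0.722 (SD, n = 3) in E10.5 Gli3-/- limbs. The remaining genes of this direction passed in Gli3-/- limbs and, with all libraries, not in WT, but 4 of them also passed in WT when the library labelled E9.25 WT replicate 2 was left out. Unc5c had 5.19, 6.23, 6.13 and 8.95 in E10.5 WT and 8.04, 8.04 and 7.99 in E10.5 Gli3-/- limbs, and its log2 fold changes were −0.58 (limma adjusted p = 0.235) in WT and −1.78 (limma adjusted p = 1.53e-05) in Gli3-/- limbs. The WT value was −1.11 (limma adjusted p = 0.0035) when the library labelled E9.25 WT replicate 2 was left out.

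Plxna4, a plexin that mediates Sema3a signals, had 7.88, 1.10 and 3.74 in E9.25 WT and 1.59, 1.62, 1.97 and 2.06 in E10.5 WT limbs, and 7.57, 13.5, 13.7 and 8.11 in E9.25 and 2.27, 3.71 and 3.12 in E10.5 Gli3-/- limbs. The WT stages overlapped only through the low value of E9.25 replicate 2, and the log2 fold changes were −0.67 (limma adjusted p = 0.193) in WT and −1.51 (limma adjusted p = 0.00108) in Gli3-/- limbs. Plxna2 had log2 fold changes of −0.41 (limma adjusted p = 0.316) and −1.89 (limma adjusted p = 2.93e-05), and Epha3 of −0.33 (limma adjusted p = 0.314) and −1.29 (limma adjusted p = 0.000306). With the library labelled E9.25 WT replicate 2 left out, the WT values passed as well, at −0.85 for Plxna2 (limma adjusted p = 0.00494), −1.21 for Plxna4 (limma adjusted p = 0.00445) and −0.65 for Epha3 (limma adjusted p = 0.0162). For Plxna2, Plxna4, Unc5c and Epha3 the interaction did not pass (limma adjusted p = 0.0638, 0.327, 0.167 and 0.135), so a difference between the genotypes was not shown. Plxnb2 had 52.7, 27.8 and 44.2 in E9.25 WT and 81.1, 67.5, 91.1 and 88.2 in E10.5 WT limbs, and 47.7, 75.6, 68.2 and 51.1 in E9.25 and 71.3, 85.9 and 69.8 in E10.5 Gli3-/- limbs, and it rose in WT (log2 fold change 1.00, limma adjusted p = 0.00523). Neo1, with 24.8, 10.6 and 18.8 in E9.25 WT and 32.1, 28.1, 35.7 and 39.0 in E10.5 WT limbs, also rose in WT (log2 fold change 0.93, limma adjusted p = 0.0156), while in Gli3-/- limbs it had 28.2, 43.3, 38.4 and 29.4 at E9.25 and 30.99, 36.7 and 30.8 at E10.5. Sema4c had 42.2, 27.7 and 32.9, then 43.0, 37.7, 43.1 and 41.3 in WT, and 32.2, 56.7, 46.9 and 45.4, then 43.6, 58.0 and 48.0 in Gli3-/- limbs, and passed in neither.

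With the library labelled E9.25 WT replicate 2 left out, the WT rises were mostly smaller but still passed for the genes described. The log2 fold change was then 2.80 for Robo2, 2.57 for Sema6c, 1.86 for Ntn1, 1.57 for Sema3f, 1.90 for Epha4, 1.83 for Epha7 and 1.43 for Efnb1. It was 1.35 for Slit2, 1.13 for Slit3, 1.26 for Nrp2, 0.74 for Plxnb2, 0.63 for Robo1 and 0.61 for Neo1, while Slit1 no longer passed. Robo1 and Neo1 moved by over 1.5 times. The falls were −1.45 for Sema3a and −1.41 for Sema3c, larger than with that library.

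Markers of cell types moved with the stage as well. Markers of migrating muscle progenitors summed to a TPM of 6.73 to 12.5 at E9.25 and 36.8 to 69.2 at E10.5, somite markers to 21.9 to 31.1 and 89.3 to 147, and markers of lateral plate, flank and coelomic lining to 20.8 to 159 and 1.22 to 2.84. The neural crest and Schwann precursor markers summed to 16.3 to 35.1 and 36.1 to 41.9, and those of embryonic erythroid cells to 7737 to 26309 and 11427 to 38241, the highest value in 1 E10.5 Gli3-/- library. Their part in the stage differences of the guidance genes was not tested.

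**Figure D5:**
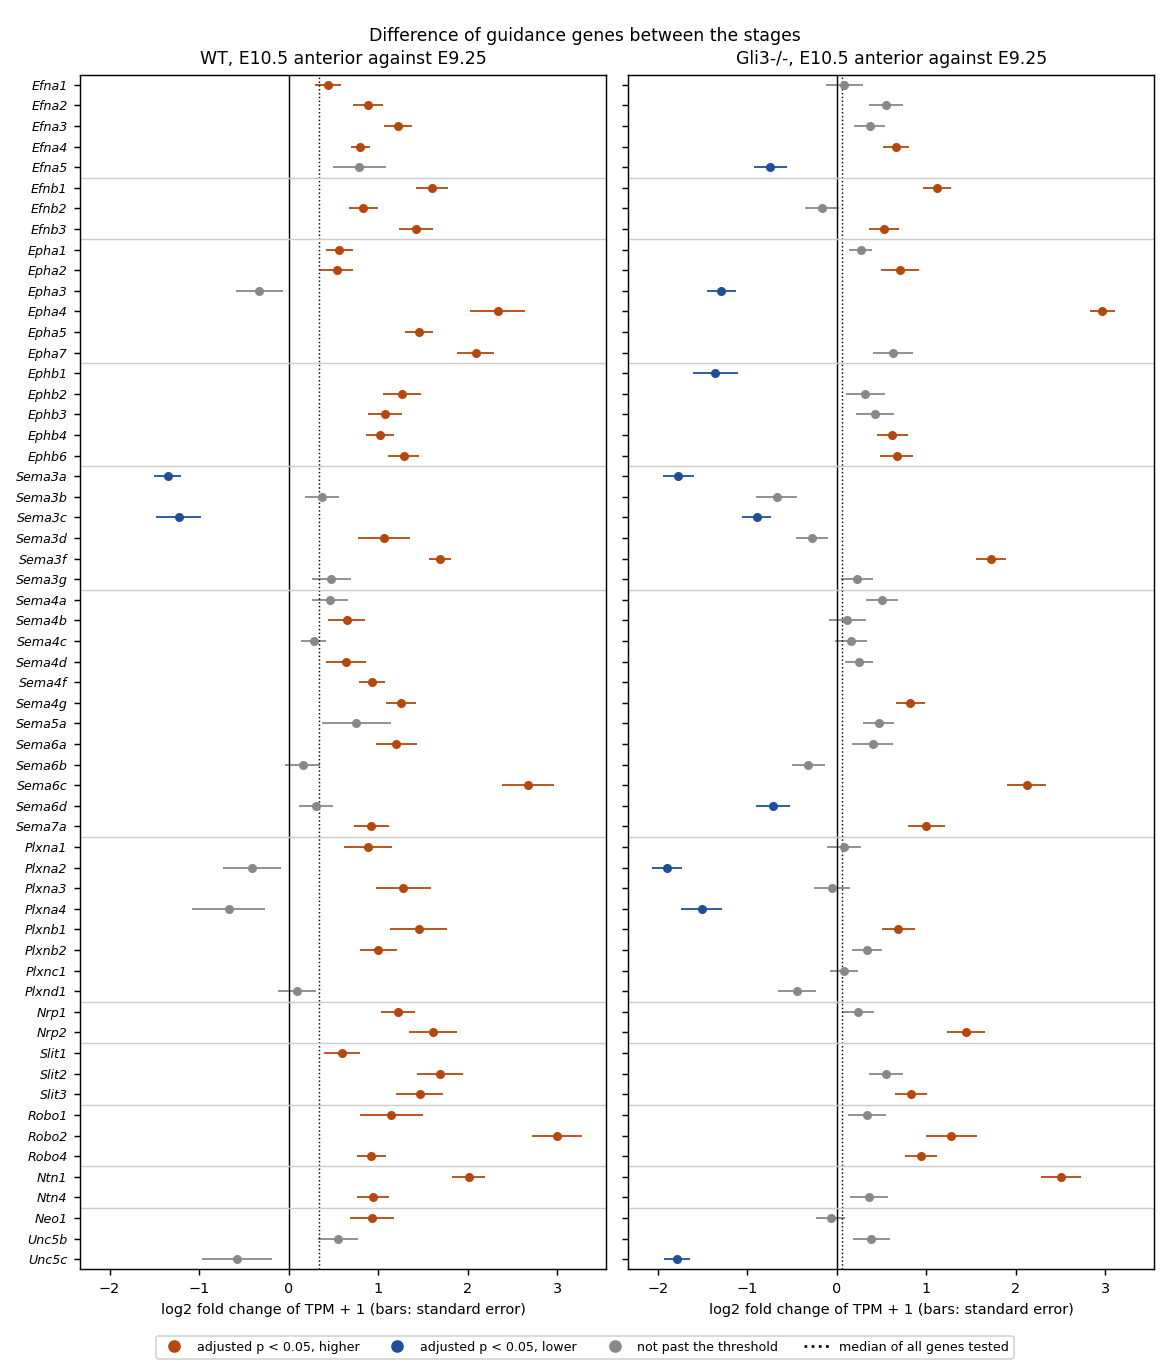
Log2 fold change (TPM + 1) of each tested guidance gene, anterior E10.5 against whole E9.25 limb buds, with its standard error, in WT (left) and Gli3-/- limbs (right), grouped by family; the dotted line is the median of all genes tested. In WT 40 genes rose and 2 fell, and in Gli3-/- limbs 17 rose and 9 fell, with Epha4, Ntn1, Sema3f and Sema6c far to the right in both.

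Other genes of the pathway, a list of 58 ligands, cofactors and intracellular partners outside these families, was tested in the same comparisons. At E10.5, 3 of 52 tested rose and 4 fell with loss of Gli3, beside 1.84% and 2.93% of all genes. Crmp1, which relays semaphorin signals, rose by a log2 fold change of 0.97 (limma adjusted p = 0.00463), Rgmb, a ligand of Neo1, by 0.64 (limma adjusted p = 0.0341) and Chn1, a chimaerin that acts below Epha4, by 0.35 (limma adjusted p = 0.0264). Srgap3, a GTPase-activating protein that binds Robo receptors, fell by 0.93 on the log2 scale (limma adjusted p = 0.00668), L1cam, an adhesion molecule that partners with Nrp1, by 0.73 (limma adjusted p = 0.0285), Dpysl3, a relative of Crmp1, by 0.69 (limma adjusted p = 0.026) and Flrt2, a repulsive ligand of Unc5 receptors, by 0.51 (limma adjusted p = 0.0219). At E9.25, 0 of 52 passed with limma. An unadjusted p under 0.05 was seen in 22 of the 52, a larger share than the 22% of all genes. In the interaction 1 of 53 passed with a more positive effect at E10.5, Crmp1 (difference 1.55, limma adjusted p = 0.0123), and 3 with a more negative one, among them Dpysl3 (difference −1.79, limma adjusted p = 0.00438), beside 0.477% and 1.65% of all genes. Between the stages 33 of 52 rose and 1 fell in WT, beside 38.1% and 10.6% of all genes, and 18 rose and 4 fell in Gli3-/- limbs, beside 15.8% and 9.17%.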

How the data were processed

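RNA was extracted with TRIzol from pooled mouse forelimb buds, libraries were made with the NEBNext Ultra II RNA kit, and single reads of 100 bases were sequenced on a NovaSeq. The authors used HISAT2 for alignment and DESeq2 for their own tests. The tool, build and annotation of the gene tables are not given in the sources used here, and the submitters' processing notes name mm10 for the series. Each deposited table holds the TPM, the FPKM and the mean coverage per base of every gene, scaled by the authors to the same TPM total in each library. No counts were used, and strand was not stated, so reads of overlapping genes cannot be told apart: 16 of the 69 guidance genes overlap a gene with a TPM of at least 1, 8 of them on the same strand. Read totals were estimated from coverage and FPKM, and replicates correlated with r of 0.971 to 0.991 on log2(TPM + 1).

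Groups came from the sample records. TPM was tested on a log2 scale, as log2(TPM + 1), with limma 3.58.1 (R 4.3.3, two-sided, with moderated variances that follow a trend over the mean level), in the 4 pairwise comparisons with only the libraries compared and in the interaction with all 14. Genes that reached a TPM of 1 in 3 or more libraries were tested, and p-values were adjusted by the Benjamini-Hochberg method over all of them at a threshold of 0.05. Fold changes on this scale understate the change of low genes. The procedure was tested on simulated data. Alternatives were a pseudocount of 0.1, a TPM minimum of 5 or none, no trend, quantile normalization, size factors, a replicate block, 1 model of all libraries, leaving out each library and, chosen after seeing the data, removal of a trend over gene span from every library. The members, pathway list, cell type markers and tests were chosen with earlier results of these data known. Values in every library were given for genes past the threshold in a genotype comparison or the interaction, for the most abundant gene of each family, and for the 10 largest changes of each stage comparison. Nothing says that pools of 1 group came from separate litters, so p-values measure the spread between these pools. The p-values and confidence intervals of single genes rest on groups of 3 or 4 libraries. Promoter windows were taken from RefSeq and matched by symbol. Python 3.11.15 with pandas 2.3.3 and matplotlib 3.10.9 was used for summaries and plots.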

Additional observations from a re-analysis of the deposited data

Results flagged for a closer look

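The interaction test in limma called a difference in the effect of losing Gli3 between E9.25 and E10.5 for 2 of 58 guidance genes. Both had a more negative effect at E10.5 (3.45%, beside 1.65% of all genes). Neither call held in every fit that left out 1 library. For Epha7 the log2 fold change at E10.5 minus that at E9.25 was −1.46, from 0.33 at E9.25 and −1.13 at E10.5. For Ephb1 the difference was −1.39, with 1.25 as its log2 fold change at E9.25, and its level at E10.5 was too low in both genotypes for a test there. Over the 26 guidance genes given with the value in every library, 52 sets of 4 libraries were examined for a single library far from the others. Of these sets 0 had one, where chance alone would mark about 5%. The E9.25 WT and E10.5 Gli3-/- groups, with 3 libraries each, were not examined in this way. The check could therefore not have marked the library labelled E9.25 WT replicate 2.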

How the results depend on the processing

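At E9.25 the number of guidance genes called, 0, became 12 in 1 model of all 14 libraries, all higher in Gli3-/- buds, 1 with the replicate numbers as a block, and 0 to 6 with 1 library left out. The share of all genes called was not taken under the settings of this section. These counts therefore do not show that guidance genes differed from other genes. At E10.5 the 12 became 6 in 1 model of all libraries, 4 with a block for the replicate numbers in the titles, 7 with one for those in the deposited tables, and 5 to 11 with 1 library left out. The other 7 settings gave 8 to 14, and Nrp2, Epha3 and Epha7 passed under all 10. For the interaction the 2 became 1 at a TPM minimum of 5, 1 with no minimum, 1 at a pseudocount of 0.1, 4 without the trend, 4 after removal of the trend over gene span, 0 with the replicate block, and 0 to 17 with 1 library left out. The WT stage count of 42 was 34 to 42 under other settings and 34 to 47 with 1 library left out, and the Gli3-/- stage count of 26 was 22 to 30 and 19 to 32. Signs turned for Epha4 at E9.25, from −0.08 to 0.05 without WT replicate 1 and 0.22 without WT replicate 3, within a range of −0.51 to 0.22. The log2 fold change of Epha7 at E9.25 was −0.056 after removal of the span trend, and that of Slit1 between WT stages was −0.028 after quantile normalization. The cause was not tested.

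By the title numbers, same-numbered libraries had a mean correlation of deviations of −0.18 at E9.25 and −0.05 at E10.5. By the table numbers the 3 E10.5 pairs correlated at 0.05 to 0.32, mean 0.19, against a mean of −0.06 for differently numbered pairs. As 1 pair stayed under 0.1 and nothing says what a number marks, the numbers were not taken as pairing. Over all genes the median log2 fold change was 0.34 in the WT stage comparison and 0.23 at E9.25. After size factors the guidance gene medians were 0.65 and 0.31, with medians over all genes near 0. With 3 or 4 pools a group, small changes may not be detectable.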

Other observations

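A pair of further semaphorins lay just outside the threshold at E10.5 and was chosen after its values were seen. Sema3b, a secreted class 3 semaphorin, had a TPM of 1.75, 2.02, 2.34 and 2.38 in WT and 0.969, 1.34 and 0.843 in Gli3-/- limbs, which do not overlap, and its log2 fold change was −0.61 (limma adjusted p = 0.0504). Sema4f, a membrane-bound semaphorin, had 1.01, 1.00, 1.37 and 1.17 in WT and 0.461, 0.498 and 0.309 in Gli3-/- limbs, also without overlap, with a log2 fold change of −0.59 (limma adjusted p = 0.0513). Both passed after size factors and without the trend. Plxnc1, the plexin that binds Sema7a, was too low for the test in this comparison, with 0.445, 0.378, 0.458 and 0.347 in WT and 1.01, 0.989 and 1.18 in Gli3-/- limbs. It lay higher in each Gli3-/- library, and it passed when no minimum of TPM was set.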
